A study of Mus musculus with 10 samples.

Results

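Motile cilium genes were followed in embryonic stem cells of C57BL/6 mice that were differentiated toward lung epithelium. The set held 39 genes of the axoneme, its dynein arms and radial spokes, and of cilium assembly. The genes were chosen by symbol, with earlier results of these data known. Each was read from its brightest probe set on average, among those annotated to that 1 gene alone. All 39 had such a probe set, of 18193 genes on the array. At day 8 there was 1 array of cells given keratinocyte growth factor (KGF, an epithelial mitogen) and 1 of untreated control cells. At days 17 and 24 there was 1 array each of cells given KGF with DCI, DCI alone, KGF alone, and neither. DCI is taken here as the dexamethasone and raised cAMP named in the series title, which asks whether the treatments support alveolar type II cells. With 1 array per condition and 10 arrays in all, there were no replicates of a condition, and the number of cultures behind an array is not given in the sources used here.

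A motile cilium beats by sliding its microtubule doublets past each other. Dynein arms supply the force, and radial spokes and the central apparatus set its timing. Intraflagellar transport carries the parts into the growing cilium. In the lung these cilia belong to the ciliated cells of the airways, which clear mucus, and not to alveolar cells. The transcription factor Foxj1 switches on the motile programme, and RFX factors bind the X-box motif in many ciliary promoters. Many of the same genes also serve the sperm tail, and the transport genes also serve the non-motile primary cilium that most cells carry.

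All values are log2 expression as deposited, and a difference of 1 is a 2-fold change. Of the 39 members, 26 lay below the median of all gene values (log2 6.67) on every array and 13 reached it on at least 1. At such low levels RMA values are compressed, and true changes can be larger than those printed. Levels of different genes come from different probes and are not set against each other. One array differed from the rest in its RNA quality signals: on the day 8 control the Actb 3′ probe set exceeded the 5′ one by 1.05, and by 0.46 to 0.62 on the other 9. In the same way the DapX spike-in gave 4.80 on that array, 2.49 with KGF and DCI and 2.68 with DCI at day 17, and 1.35 to 1.82 on the other 7 arrays. That pair of day 17 arrays carries that day's DCI values below, and the part of these signals in them was not tested. The labels call all samples embryonic stem cells. Pou5f1, a defining gene of the undifferentiated state, read 5.79 with KGF and 5.61 in the control at day 8, and between 3.93 and 6.24 later.

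The promoters of the set are shown because the RFX binding motif is shared widely among these genes. RefSeq promoter windows on GRCm38.p6, from 250 bases before to 50 bases after each start, were at hand for 35 of the 39 members. Those of Foxj1, Rsph1, Rsph4a and Nme5 were not used here. The X-box was searched on both strands as GTTNCC, 3 bases of any kind and GNAAC, with N for any base. It was found in 6 of the 35 members (Spag16, Hydin, Enkur, Tekt4, Pifo and Tctn1), or 17.1%, and in 0.936% of the 27025 genes with a promoter window. A looser form, with GTNNCC and GNNAC at the same spacing, was found in 12 members and in 5.26% of all genes. The short core GTTGCC, which can be part of the X-box, was found in 21 of the 35 members and in 14.1% of all genes. The forkhead motif TGTTTAC was found in 1 member, Ak7, and in 4.05% of all genes. These 4 motifs were chosen after a look at the promoters, and the matches are letters and not measured binding sites. The stretches below lie before the start, read 5′ to 3′ along the gene, with the X-box in capitals for the first 3 and 1 GTTGCC core in capitals for the last pair, chosen among the 21 as members that rose with KGF. The Fam183b stretch holds a further GTTGCC in lower case, 67 to 62 bases before the start. In the Dynlrb2 stretch gcaac follows the core at a shorter spacing than in the X-box searched. X-box forms with other spacings were not searched or counted.
Pifo (chr3:106001498-106001577, minus strand): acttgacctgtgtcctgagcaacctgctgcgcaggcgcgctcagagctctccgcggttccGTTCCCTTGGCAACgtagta
Hydin (chr8:110266897-110266976, plus strand): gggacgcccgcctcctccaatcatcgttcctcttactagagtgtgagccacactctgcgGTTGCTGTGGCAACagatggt
Spag16 (chr1:69826834-69826913, plus strand): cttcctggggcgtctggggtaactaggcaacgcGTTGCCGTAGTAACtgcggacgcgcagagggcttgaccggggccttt
Dynlrb2 (chr8:116504931-116505010, plus strand): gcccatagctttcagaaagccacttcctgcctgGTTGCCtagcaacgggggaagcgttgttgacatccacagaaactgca
Fam183b (chr11:58801961-58802040, minus strand): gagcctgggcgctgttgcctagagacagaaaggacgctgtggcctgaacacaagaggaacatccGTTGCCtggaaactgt
Of these 5 genes, Pifo, Dynlrb2 and Fam183b rose with KGF, as described below, while Hydin, with a KGF difference of 0.12, and Spag16, with -0.02, did not pass that test. Of the 5 members that rose with KGF and had a window, 1 held the X-box and 3 the core, against 6 and 21 of all 35.

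Between day 8 and day 17, 15 of the 39 members rose and 1 fell. The test was limma's moderated test in a model of all 10 arrays in which day, KGF and DCI add up. P-values were adjusted by the Benjamini-Hochberg method over all genes, with a threshold of 0.05. Any departure from such addition enters the model's error along with the noise of the arrays, and can enter the fitted day difference too. The members' median KGF difference was -0.08 at day 8. At day 17 it was 0.65 without DCI and 0.46 with DCI in both arrays. The part of this change in the day result was not tested. Over all genes 21.4% rose and 21% fell, so that in this fit the share of members that rose stood above the background and the share that fell below it. In either direction 16 members and 42.4% of genes passed, and 20 members and 49% of genes had an unadjusted p under 0.05. The split depends on the normalisation. After a second quantile normalisation 16 members and 8538 genes passed, against 7713 genes before, but the members differed. Dnali1, Dnaic1, Spag6l and Tekt4 no longer passed. Rfx2 (-0.70), Rfx3 (-0.55), Dnah11 (-0.55) and Ift88 (-0.40) then passed as lower. Macrophage genes, 17 of 17 of a marker list, rose over the same interval, with a median of 5.28. So did 20 of 24 general epithelium genes (4 fell, median 0.91) and 10 of 15 club and airway secretory genes (median 1.37). The part of these lists in the members' result was not tested. The median difference was 0.35 for the members and -0.02 for all genes. In these bulk samples, more cells of a type and more RNA per cell cannot be told apart.

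**Figure D1:**
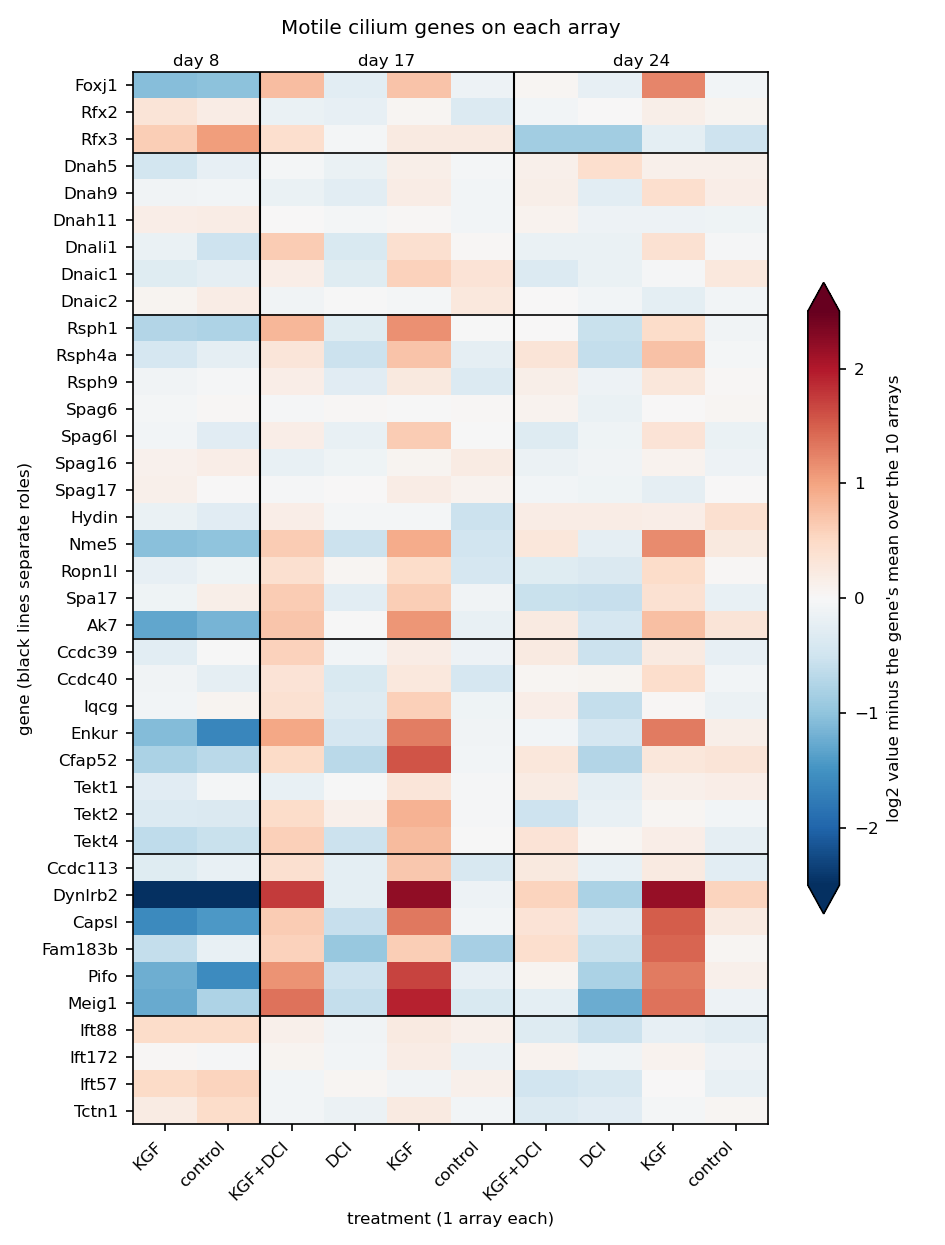
Log2 value of each of the 39 genes (rows, black lines between roles) on each of the 10 arrays (columns, by day and treatment), less the gene's own mean over the arrays. Dynlrb2, Capsl, Pifo and Enkur are low on both day 8 arrays, and most of the strongest reds lie in the KGF columns of days 17 and 24.

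The largest rises were in the group of other cilium and assembly genes and in that of the ruler, nexin link and tubule lumen. Dynlrb2, a light chain of the roadblock family in the dynein motors, rose by 4.38 ± 0.54 (SE, 20.9-fold; limma adjusted p = 7.51e-05). It read 2.81 with KGF and 3.40 in the control at day 8, and between 5.36 and 8.36 on the later arrays. Pifo, known from work on cilium disassembly, rose by 2.29 ± 0.31, Capsl, a calcyphosine-like calcium-binding protein, by 2.21 ± 0.30, and Enkur, a protein inside the doublet microtubules, by 2.11 ± 0.26. Enkur read 3.87 with KGF and 3.32 in the control at day 8, and between 4.52 and 6.25 later. For Dynlrb2, Capsl and Enkur, both day 8 arrays lay below all 8 later arrays. The same held for Foxj1, which rose 2.82-fold, and for Pifo. It also held for Ak7, Nme5, Rsph1 and Tekt4, and for Dnah5, which did not pass. The share of all genes with this pattern was not counted.

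The other members that rose were Meig1 (2.04), Ak7 (1.82), Cfap52 (1.40), Nme5 (1.37), Rsph1 (1.35), Tekt2 (0.84), Tekt4 (0.83), Dnaic1 (0.68), Dnali1 (0.62) and Spag6l (0.49). They span the radial spokes, the tektins and the dynein arms. Their fitted rises cover arrays with and without KGF. For each of them the control was higher at day 17 than at day 8, but the KGF array rose by more. Meig1 went from 3.75 to 4.15 in the control and from 3.26 to 6.45 with KGF. Nme5 went from 5.38 to 5.90 and from 5.35 to 7.31. The steps were closest for Dnali1, from 3.63 to 4.16 and from 3.96 to 4.55. The part of KGF in these rises was not tested. Ift57, a subunit of the transport complex, fell by 0.41. It read 8.37 with KGF and 8.44 in the control at day 8, and 7.82, 7.95, 7.81 and 8.03 with KGF and DCI, DCI, KGF and no treatment at day 17. The count of 16 became 9 without the day 8 KGF array and 18 without the day 8 control array.

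From day 17 to day 24 no member rose in limma and 4 fell, against 14.8% of all genes that rose and 22.5% that fell, or 37.3% in either direction. At an unadjusted p under 0.05 there were 7 members (46.5% of all genes), of which Hydin was higher, by 0.35. The RFX factor gene Rfx3 fell by 0.82 ± 0.15 (limma adjusted p = 0.00159). Rfx3 read 7.41 with KGF and 7.86 in the control at day 8. At day 17 it read 7.22 with KGF and DCI, 6.76 with DCI, and 7.02 both with KGF and in the control, and at day 24 5.94, 5.93, 6.57 and 6.29 in that order of treatments. Rfx3 was thus lower on every day 24 array than on every day 17 array. The transport genes Ift88 and Ift57 fell by 0.43 and 0.27, and the tektin gene Tekt2 by 0.54. Ift88 lay between 6.57 and 6.88 at day 17 and between 6.12 and 6.45 at day 24, without overlap. How many of all genes separate these days in this way was not counted. The count of 4 became 2 without the array of KGF with DCI of either day.

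With KGF at days 17 and 24, 8 of the 39 members rose and none fell. All 8 were placed with the radial spokes or in a mixed group of other cilium and assembly genes, called the assembly group below. None was placed in the dynein arm or transport groups, but the assembly group holds the dynein light chain Dynlrb2. The fit used the 8 arrays of those days, with terms for day, KGF and DCI, and 0.352% of all genes rose in it and 0.0055% fell. At an unadjusted p under 0.05 there were 23 members, all higher, against 8.57% of all genes. The median KGF difference was 0.43 for the members and 0.00 for all genes, and 35 of 39 members lay above 0 against 50.6% of all genes. In all 4 matched pairs of arrays, 21 members were higher with KGF, against 10.8% of all genes, and none was lower in all 4, against 8.45%. For 12 members every KGF array lay above every array without KGF, against 0.984% of all genes. The members were chosen with earlier results of these data known, so these shares describe the set and are not independent support.

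**Figure D2:**
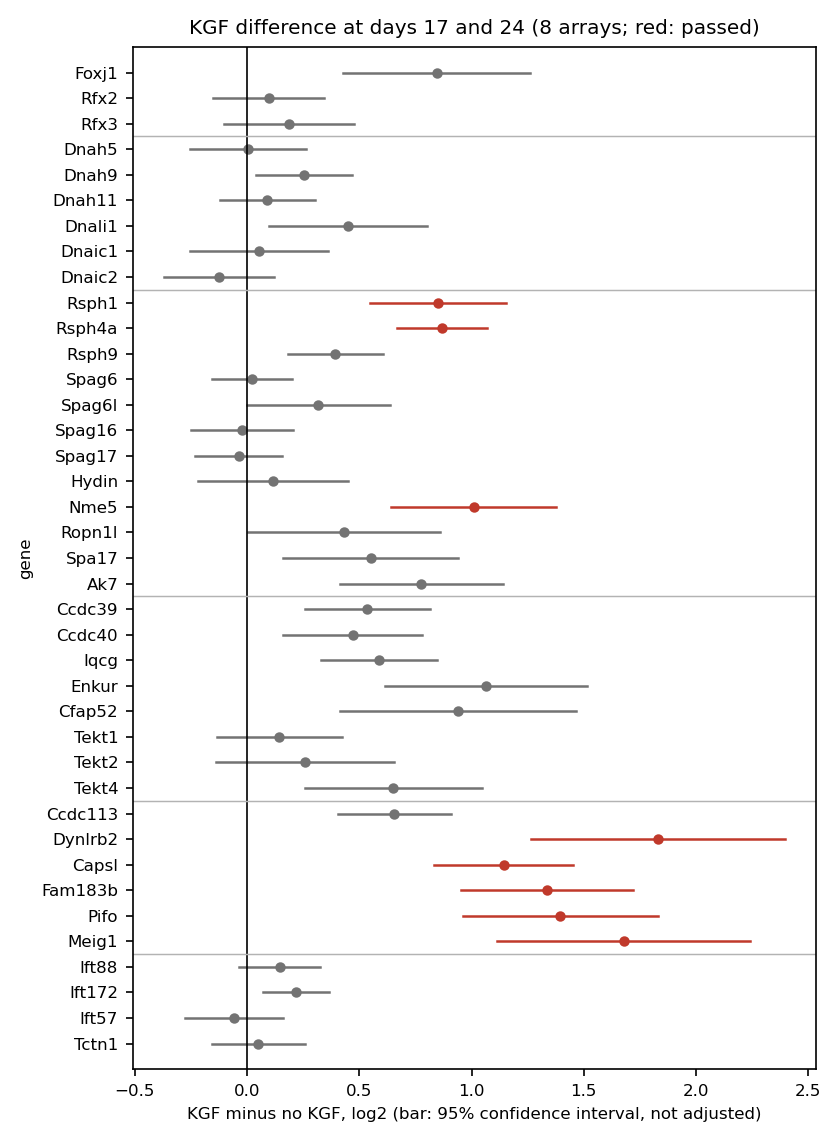
KGF minus no KGF on the log2 scale for each of the 39 genes (points) with its 95% confidence interval (bars, not adjusted over genes), from the 8 arrays of days 17 and 24. The 8 genes that passed are in red, from Rsph1 at 0.85 to Dynlrb2 at 1.83, and the transport genes at the bottom lie near 0.

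Among the transcription factors, Foxj1 was higher on every KGF array of the later days but did not pass. At day 17 it read 6.64 with KGF against 5.81 in the control, and 6.70 with KGF and DCI against 5.67 with DCI. At day 24 it read 7.14 with KGF against 5.87 in the control, and 5.98 with KGF and DCI against 5.73 with DCI. The KGF arrays lay above the others, but the last pair differed by little. The fitted difference was 0.84 ± 0.18 (limma adjusted p = 0.138). Rfx2 read 5.14 with KGF against 4.75 in the control and 4.92 with KGF and DCI against 4.89 with DCI at day 17, and 5.23 against 5.17 and 5.02 against 5.11 at day 24. Its difference of 0.10 ± 0.11 and that of Rfx3, 0.19 ± 0.13, did not pass.

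Of 12 genes of the radial spokes and the central apparatus, 3 rose with KGF, and the group's median was 0.41. Rsph4a, of the spoke head, rose by 0.87 ± 0.09 (1.83-fold; limma adjusted p = 0.0101). At day 17 it read 4.42 with KGF against 3.47 in the control, and 4.0 with KGF and DCI against 3.17 with DCI. At day 24 it read 4.43 against 3.64, and 4.02 against 3.11. The 4 KGF arrays thus lay above the other 4, by a like amount in each pair. Rsph1, of the same spoke head, rose by 0.85 ± 0.13 (adjusted p = 0.0433 in limma). It read 6.95 with KGF against 5.79 in the control and 6.64 with KGF and DCI against 5.50 with DCI at day 17, and 6.25 against 5.71 and 5.81 against 5.25 at day 24. The 2 lower KGF values of Rsph1 were those of day 24. The spoke-associated gene Nme5 rose 2.01-fold (adjusted p = 0.0477 in limma). Its values at day 17 were 7.31 with KGF against 5.90 in the control and 7.02 with KGF and DCI against 5.84 with DCI, and at day 24 7.57 against 6.64 and 6.66 against 6.16. The lowest KGF array stood just above the highest array without KGF.

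The third spoke head gene, Rsph9, differed by 0.39 ± 0.09 and did not pass (limma adjusted p = 0.174), although its KGF arrays also lay above the rest. The adenylate kinase Ak7 stood at 0.78, and the proteins Spa17 and Ropn1l, which share a docking domain with protein kinase A, at 0.55 and 0.43, none of them past the threshold. The central apparatus genes Spag6, Spag6l, Spag16, Spag17 and Hydin ranged from -0.04 to 0.32. Of these, Spag6 and Spag17 never exceeded 2.82 on any array, near the bottom of the scale.

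The assembly group had the highest median of the 6 roles, 1.37, and 5 of its 6 members rose. Dynlrb2 rose by 1.83 ± 0.25 (3.55-fold; limma adjusted p = 0.0263). At day 17 it read 8.36 with KGF against 6.02 in the control, and 7.91 with KGF and DCI against 5.90 with DCI. At day 24 it read 8.32 with KGF against 6.70 in the control, and 6.70 with KGF and DCI against 5.36 with DCI. Dynlrb2 was the member at least 2-fold higher with KGF in all 4 pairs, a pattern of 0.055% of all genes. Its day 24 array with both treatments only equalled that day's control.

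Meig1, known in the mouse for its part in sperm development, rose by 1.68 ± 0.25 (3.20-fold). Its values at day 17 were 6.45 with KGF against 4.15 in the control and 5.88 with KGF and DCI against 3.93 with DCI, and at day 24 5.88 against 4.39 and 4.27 against 3.29. The KGF and other arrays of Meig1 overlapped, because the day 24 array with both treatments lay below that day's control. Pifo rose by 1.40 ± 0.19 (2.63-fold), with 7.56 with KGF against 5.66 in the control and 6.99 with KGF and DCI against 5.35 with DCI at day 17. At day 24 Pifo read 7.18 against 6.00 and 5.94 against 5.08, again with the array of both treatments below that day's control.

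Fam183b, a small protein of motile cilia, rose by 1.34 ± 0.17 (2.53-fold). It read 6.37 with KGF against 4.92 in the control and 6.34 with KGF and DCI against 4.82 with DCI at day 17, and 7.21 against 5.82 and 6.19 against 5.20 at day 24. Capsl rose by 1.14 ± 0.14 (2.21-fold), with 6.46 against 5.07 and 5.79 against 4.57 at day 17, and 6.67 against 5.38 and 5.49 against 4.81 at day 24. For both genes all 4 KGF arrays lay above the other 4. The limma adjusted p was 0.0211 for both, 0.0263 for Pifo and 0.0327 for Meig1. The last of the group, Ccdc113, a protein of the axoneme and the centriolar satellites, differed by 0.66 ± 0.11 and did not pass (limma adjusted p = 0.059).

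**Figure D3:**
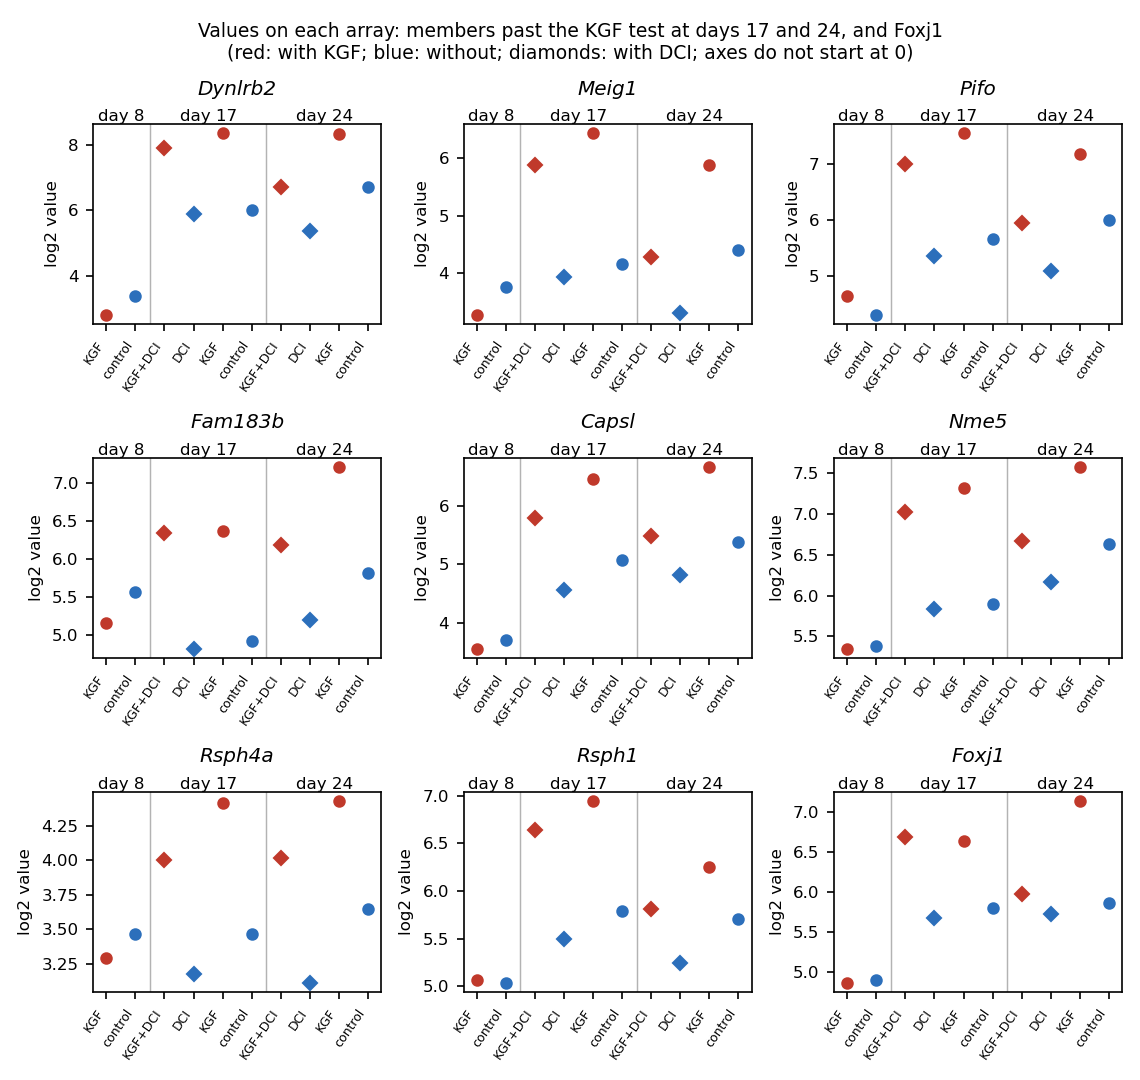
Log2 value on each of the 10 arrays (x axis, by day and treatment) for the 8 genes that passed the KGF test of days 17 and 24 and for Foxj1, 1 panel a gene. Red points (KGF) lie above the blue point of the matching array in every pair of days 17 and 24, while at day 8 the red point lies below the blue one for all but Rsph1 and Pifo. Dynlrb2 spans 2.81 to 8.36.

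Among the genes of the axonemal ruler, the nexin link and the tubule lumen, none of 8 passed in limma (6 had an unadjusted p under 0.05), and all 8 lay above 0 with a median of 0.56. Enkur differed by 1.06 ± 0.20 (limma adjusted p = 0.0867). It read 6.23 with KGF against 4.86 in the control and 5.91 with KGF and DCI against 4.53 with DCI at day 17, and 6.25 against 5.10 and 4.88 against 4.52 at day 24. Cfap52 differed by 0.94, Tekt4 by 0.65, Iqcg, of the nexin link, by 0.59, and the ruler genes Ccdc39 and Ccdc40 by 0.54 and 0.47. Tekt2 read 4.71 with KGF against 3.81 in the control and 4.29 with KGF and DCI against 3.96 with DCI at day 17. At day 24 it read 3.88 against 3.76 and 3.32 against 3.64, so that its KGF difference of 0.26 changed sign in the last pair.

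The 6 dynein arm genes had a median of 0.07 and none passed in limma, with 2 at an unadjusted p under 0.05. The inner arm gene Dnali1 stood highest at 0.45 ± 0.16. The outer arm heavy chain genes Dnah5, Dnah9 and Dnah11 stood at 0.01, 0.25 and 0.09, and the intermediate chain genes Dnaic1 and Dnaic2 at 0.05 and -0.13. Other probe sets, not tested, gave 0.82 for Dnali1, 0.68 for Dnaic2, 0.05 for Dnaic1 and -0.16 for Dnah9. Dnah5 and Dnah9 never exceeded 4.29 on any array. The 4 transport and transition zone genes had a median of 0.10, with 1 at an unadjusted p under 0.05, from -0.06 for Ift57 to 0.22 for Ift172, and lay between 6.12 and 8.44 on all arrays.

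The number of calls changed with single arrays. No member passed when a day 17 array, or that of DCI alone at day 24, was omitted. Over all genes 8 to 10 passed in those fits, against 65 with no array omitted. There was 1 member without the day 24 control (10 of all genes) and 3 without the day 24 KGF array (36 of all genes). Without the day 24 array with both treatments there were 10 (67 of all genes). Over the same 8 omissions the Dynlrb2 difference ranged from 1.55 to 2.10, that of Pifo from 1.19 to 1.61 and that of Rsph4a from 0.83 to 0.90. A fit on matched pairs, with a term for each day and DCI state, called 13 members and 249 of all genes.

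At day 8 most members were not higher with KGF. The difference between the KGF and control arrays had a median of -0.08 over the members and -0.03 over all genes, and 11 of 39 members lay above 0 against 43.9% of all genes. Of the members that rose at the later days, Dynlrb2 read 2.81 with KGF against 3.40 in the control, Meig1 3.26 against 3.75, Fam183b 5.17 against 5.57, Capsl 3.55 against 3.71 and Rsph4a 3.29 against 3.47. Pifo read 4.65 with KGF against 4.30 in the control, Rsph1 5.07 against 5.03 and Nme5 5.35 against 5.38. Most of these pairs thus ran lower with KGF or lay close together. Foxj1 read 4.86 with KGF against 4.90 in the control, Rfx2 5.42 against 5.28 and Dnaic1 5.34 against 5.42. No member differed 2-fold, while 0.17% of all genes were at least 2-fold higher and 0.077% at least 2-fold lower. At day 17, 11 members were at least 2-fold higher with KGF than in the control (0.742% of all genes). With DCI present in both arrays, 12 members were (0.423% of all genes). At day 24 the counts were 7 (0.291% of all genes) without DCI and 2 (0.269%) with DCI in both. These are differences between single arrays with no test.

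**Figure D4:**
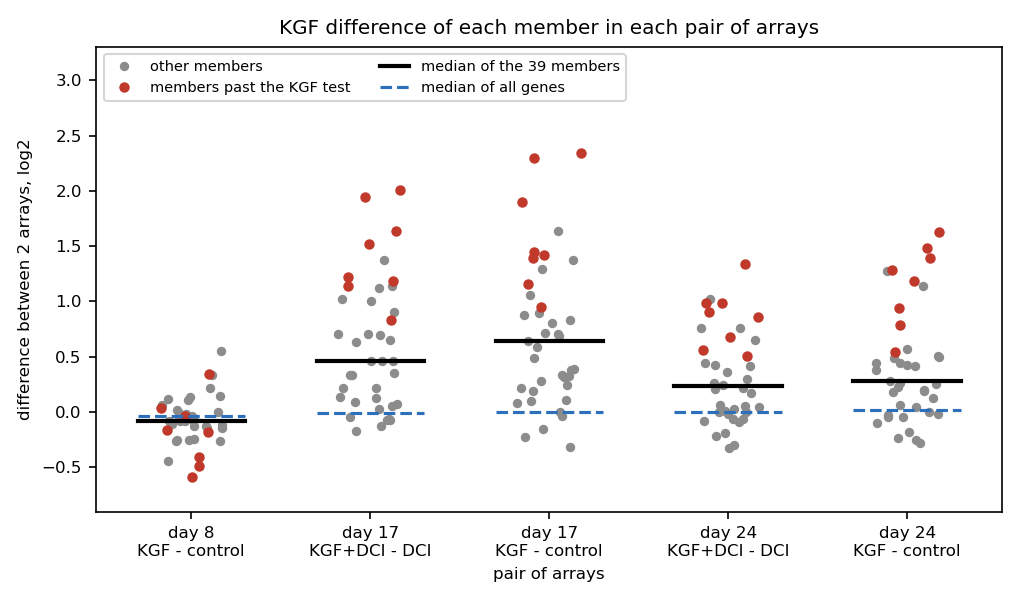
Difference between the KGF array and the matching array without KGF (log2) for each of the 39 genes (points) in the 5 pairs of arrays, with the median of the members (black) and of all genes (dashed blue). The median of the members is -0.08 at day 8, 0.46 and 0.65 at day 17, and 0.24 and 0.28 at day 24.

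With the day 8 pair in the fit, so that 1 KGF difference was fitted for all days, none of the 39 members passed in limma, and 0.0055% of all genes rose. At an unadjusted p under 0.05 there were 22 members, against 8.06% of all genes. A test of the later KGF differences against that of day 8, added after the data were seen, called no member in limma either, and 12 at an unadjusted p under 0.05 (7.26% of all genes), while 0.0055% of all genes rose. Its estimate was 2.42 ± 0.56 for Dynlrb2 (adjusted p = 0.339 in limma) and 1.05 ± 0.20 for Rsph4a (adjusted p = 0.23). It rests on 1 pair of arrays at day 8, among them the control array that stood apart.

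With DCI, 1 member fell and none rose in limma, against 8.09% and 7.27% of all genes, or 15.4% in either direction. At an unadjusted p under 0.05 there were 10 members, all lower, against 27.5% of all genes. The outer arm gene Dnaic1 fell by 0.45 ± 0.13 (limma adjusted p = 0.0424). Dnaic1 read 5.79 with KGF and DCI against 6.20 with KGF, and 5.34 with DCI against 5.98 in the control, at day 17. At day 24 the values were 5.29 against 5.61 and 5.47 against 5.89, lower with DCI in all 4 pairs. The other Dnaic1 probe set gave a smaller DCI difference, -0.27. The call was kept when KGF alone at day 24 or both treatments at day 17 were omitted and was lost without any 1 of the other 8. The count was 0 when KGF alone at day 17, DCI alone at either day, the day 24 control or both treatments at day 24 were left out, 5 without either day 8 array and 6 without the day 17 control. Over all genes 1638 to 2834 passed with 1 array left out, against 2793 with none left out. The median DCI difference was -0.22 for the members and -0.01 for all genes, and 4 of 39 members lay above 0 against 48.7% of all genes. Dynlrb2 stood at -0.89, Meig1 at -0.88, Pifo at -0.75 and Capsl at -0.73, none past the threshold (limma adjusted p from 0.0508 to 0.19). These 4 calls depend on the fit: with matched pairs 8 members fell, the 4 among them with Dnaic1, Rsph1, Rsph4a and Cfap52 (limma adjusted p from 0.0104 to 0.0466). Of all 18193 genes 2566 passed in that fit, in either direction. A second normalisation gave 4 members, namely Dnaic1, Enkur, Capsl and Pifo, and 2960 of all genes. Of 17 macrophage genes 16 fell with DCI, with a mean level of 6.49 to 8.08 on the DCI arrays and 9.54 to 9.92 on the other arrays of those days, and their part in the members' DCI values was not tested.

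The arrays with both treatments can be set against the control of the same day without a test. At day 17, 6 members were at least 2-fold higher (1.76% of all genes), namely Dynlrb2 by 1.89, Meig1 by 1.72, Fam183b by 1.42, Pifo by 1.34, Nme5 by 1.12 and Enkur by 1.05. At day 24 there were none, against 2.2% of all genes, and the median of the members was -0.01. Against the culture with KGF alone, the day 24 culture with both treatments was at least 2-fold lower for 7 members (2.4% of all genes), Foxj1 among them by 1.17. At day 17 this held for 1, Cfap52 (1.2% of all genes).

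Whether KGF acted otherwise in the presence of DCI or at the later day was tested with interaction terms over the 8 arrays. For KGF by DCI no member passed in limma, and 0 had an unadjusted p under 0.05, against 1.47% of all genes. The estimate for Dynlrb2 was -0.31 and that for Foxj1 -0.42. For KGF by day no member passed in limma. The unadjusted p was under 0.05 for 5 members (5.12% of all genes), namely Cfap52 (-0.90), Pifo (-0.75), Tekt2 (-0.72), Rsph1 (-0.59) and Dnaic1 (-0.57), all with a smaller KGF difference at day 24. For DCI by day no member passed in limma, against 0.533% of genes higher and 1.97% lower (2.51% in either direction), with 5 at an unadjusted p under 0.05 (16% of all genes). The largest of these, Dynlrb2, stood at -1.20 ± 0.28 (adjusted p = 0.0645 in limma). The 95% interval of the KGF by day term of Pifo ran from -1.46 to -0.04.

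Further cilium genes were read from lists drawn up by textbook role. Of 70 further axoneme genes 6 rose with KGF at days 17 and 24 and none fell, against 0.352% and 0.0055% of all genes. Their median was 0.27 and 61 lay above 0, against 50.6% of all genes. The 6 were Tmem212 (2.01-fold higher), and, on the log2 scale, the inner arm gene Wdr63 (0.78), Bbof1, which orients basal bodies (0.76), the nexin link gene Drc3 (0.73), Ttc29 (0.73) and the tubulin-binding Tppp3 (0.70). Tppp3 read 8.02 with KGF against 7.09 in the control and 8.06 with KGF and DCI against 7.28 with DCI at day 17, and 8.32 against 7.70 and 8.13 against 7.67 at day 24. None of 14 dynein arm assembly factors passed in limma (median 0.31, 8 at an unadjusted p under 0.05). The same was true of 47 further genes of transport, the BBSome and the transition zone (median 0.06, 4 at an unadjusted p under 0.05).

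Of 13 regulators of multiciliation none passed with KGF in limma, with a median of 0.08 and 4 at an unadjusted p under 0.05. Named here after their values were seen, Myb stood at 1.36 ± 0.25 (adjusted p = 0.0743 in limma), Deup1 at 0.95 and Ccno at 0.70. Myb is an early factor of multiciliated cells that blood progenitors also use, Deup1 builds the deuterosome, where centrioles multiply, and Ccno is a cyclin of the same step. Myb read 7.57 with KGF against 5.29 in the control and 6.96 with KGF and DCI against 5.34 with DCI at day 17. At day 24 it read 5.15 against 4.45 and 4.46 against 3.64. Ccno read 6.59 against 5.05 and 6.37 against 5.37 at day 17, and 5.53 against 5.31 and 5.39 against 5.36 at day 24. Deup1 read 6.35 against 4.82 and 6.10 against 4.05 at day 17, and 4.74 against 4.17 and 4.04 against 4.37 at day 24, where the last pair ran the other way. All 3 genes were highest on the 2 KGF arrays of day 17. From day 17 to day 24 Myb fell by 1.86 and Deup1 by 1.00. In that interval 5 of the 13 regulators passed as lower and 0 as higher, against 22.5% and 14.8% of all genes. All 11 genes of a cell cycle list fell too, and their part in these falls was not tested.

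Markers of other epithelial cells moved with KGF too. Of 24 general epithelium genes 7 rose with KGF at days 17 and 24, with a median of 0.36. Of 15 club and airway secretory genes 6 rose, with a median of 0.96. Over all genes 0.352% rose in that fit. The mean level of the epithelium genes was 8.98 to 9.68 on the KGF arrays of those days and 8.59 to 9.39 on the arrays without KGF. That of the airway secretory genes was 7.25 to 9.71 with KGF and 6.39 to 8.60 without. Their part in the KGF result of the cilium genes was not tested. With DCI, 13 of the 24 epithelium genes rose and 1 fell, and 6 of the 15 airway secretory genes rose, while no cilium member rose. Over all genes 7.27% rose with DCI and 8.09% fell.

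**Figure D5:**
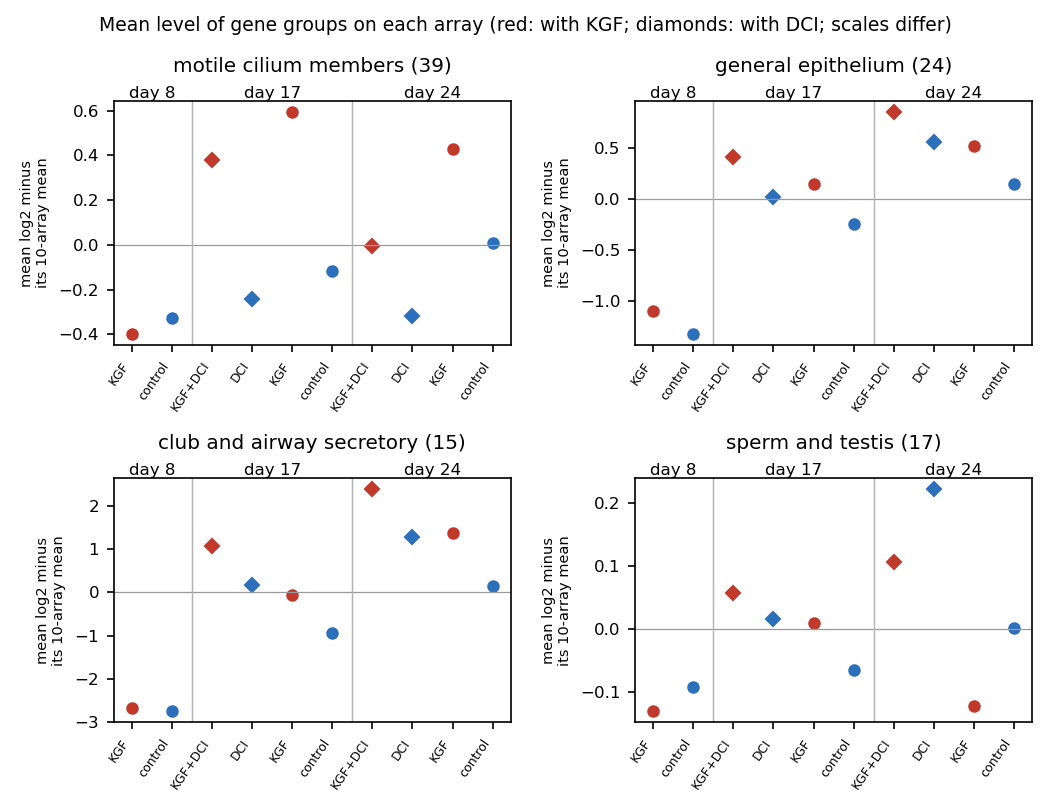
Mean log2 level of 4 groups of genes on each of the 10 arrays, less the group's mean over the arrays (number of genes in brackets, 1 panel a group, scales differ). The epithelial and airway secretory groups are highest on the day 24 array with both treatments, while the cilium members are highest on the day 17 KGF array.

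A list of sperm and testis genes held no member. With KGF none of 17 passed in limma and 0 had an unadjusted p under 0.05, the median was -0.03, and the mean level of the list lay between 3.53 and 3.89 on all 10 arrays. Single genes of the list lay higher, and 1 of the 17 rose from day 8 to day 17 (21.4% of all genes) and 2 with DCI (7.27%). Of the genes of the choroid plexus and ependyma, whose ependymal cells also carry motile cilia, 1 of 12 rose with KGF. It was the axoneme gene Tmem212 counted above, and over all genes 0.352% rose. None of 5 node genes, 11 neural genes, 17 macrophage genes, 11 cell cycle genes or 7 housekeeping genes passed for KGF in limma, with 1, 2, 2, 0 and 2 at an unadjusted p under 0.05. Their medians were -0.07, -0.09, -0.31, -0.10 and 0.03.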

How the data were processed

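RNA from differentiating cells was hybridised to 10 Affymetrix arrays with 1 array a condition. The authors deposited log2 values of 45101 probe sets, which RMA produced, per the submitters' processing notes. No version of RMA and no genome build is given in the sources used here. RMA makes the distributions of arrays alike, so that a difference of a gene is relative to the rest of its array. Of the probe sets, 34945 had 1 gene symbol in the platform annotation, for 18193 genes. No gene was filtered out. Fits used limma 3.58.1 in R 4.3.3, with eBayes and a mean trend. Residual degrees of freedom were 5 for 10 arrays, 4 for the 8 arrays of days 17 and 24, and 3 with an interaction on those 8, and p-values measure only that residual spread. Precision is limited by how few arrays there are. Members and lists were chosen with earlier results of these data known. Values on every array are given, with day 8 apart from the later days, for the transcription factors and for members past a KGF, DCI or interaction test, and the 4 largest day differences each way are named. Of the wider cilium lists, up to 6 genes past the KGF test are named. Alternatives were eBayes without the trend, leaving out the 40% of genes with the lowest means, averaging the probe sets of each gene, a second quantile normalisation, matched pairs and leaving out each array. A test of the later KGF differences against day 8 was added after the data were seen. Figures were drawn with matplotlib 3.10.9.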

Additional observations from a re-analysis of the deposited data

Results flagged for a closer look

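For 4 members a treatment difference had opposite signs in every pair of arrays of the 2 later days. Such signs were looked for in the members only. The share over all genes was not counted, so the count of 4 cannot be set against a background. The KGF difference of the outer arm gene Dnaic1 was above 0 in both pairs at day 17 and below 0 in both at day 24, with an interaction of -0.57 (limma adjusted p = 0.944). Tctn1, of the transition zone, did the same, at -0.26 (limma adjusted p = 0.954). The DCI difference of Dnaic2 was below 0 at day 17 and above 0 at day 24, at 0.27 (limma adjusted p = 0.61), and that of Tekt4 likewise, at 0.59 (limma adjusted p = 0.37). None of these interactions passed. For 2 of the genes another probe set did not show the pattern. The other Dnaic2 probe set had a DCI by day term of -1.09, opposite in sign to that of the one used. The other Dnaic1 probe set had a KGF by day term of 0.06. These other probe sets were not tested.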

How the results depend on the processing

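The KGF count of 8 members at days 17 and 24 became 3 without a mean trend, 1 with the lowest 40% of genes left out, 3 with probe sets averaged, 13 with matched pairs and 0 to 10 with 1 array left out. Of the 39 members, the filter on low values kept 9. The count over all genes in that fit was 65, and 28, 24 and 249 without a trend, with averaged probe sets and with matched pairs. It was 44 with the filter and 8 to 67 with 1 array left out. With the day 8 arrays in the fit the KGF count stayed 0 when any 1 array of days 17 and 24 was left out. When either day 8 array is omitted, the other is fitted exactly by its day term. That fit then repeats the one on days 17 and 24 alone and is no further check. Over all genes the KGF count of the fit with day 8 was 1, and 0, 0, 2 and 10 without a trend, with averaged probe sets, with the filter and with matched pairs. The DCI count of 1 became 2 without a trend, 0 with the filter, 2 with averaged probe sets, 4 after a second normalisation, 8 with matched pairs and 0 to 6 with 1 array left out. With 1 array left out, the count of 4 from day 17 to day 24 ranged from 2 to 5, the count of 16 from day 8 to day 17 from 9 to 18, and the DCI by day count of 0 from 0 to 1. Over all genes the DCI by day count was 456, and 138 without a trend and 223 with averaged probe sets, and the DCI count of 2793 ranged from 1638 to 2834 with 1 array left out. That DCI count was 2357 without a trend, 2488 with the filter and 2333 with averaged probe sets. After a second normalisation it was 2960, and with matched pairs 2566. The filter took the count of 16 to 5. The count of 2 for KGF with DCI against DCI at day 24 became 1 with averaged probe sets. The filter tests fewer genes and kept few members. For the other moves, up or down, the cause was not tested. No member that had passed changed direction under any alternative run. The matched pairs were arrays of the same day and other treatment, since the labels carry no replicate numbers to use as a block. The number of arrays and the low signal of most members limit what can be seen.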

Other observations

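Of the 39 members, 13 had further probe sets. The other probe set of the outer arm gene Dnaic2 had a KGF difference of 0.68 at days 17 and 24, against -0.13 for the one used, and that of the inner arm gene Dnali1 0.82, against 0.45. The other Cfap52 probe set gave 0.60. For Rfx2, 2 of its 3 other probe sets lay at -0.21 and -0.19. The 8 members that rose with KGF have 1 probe set each. From day 8 to day 17 the other Dnaic1 probe set differed by 0.22, against 0.68 for the one used.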
